A study of Homo sapiens with 40 samples.

Results

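NRF2, encoded by NFE2L2, is the transcription factor that switches on the cell's defence against oxidants and electrophiles. In unstressed cells KEAP1 holds NRF2 for ubiquitination and degradation. When KEAP1 is modified by an oxidant, NRF2 escapes, pairs with a small MAF protein and binds antioxidant response elements near genes that make glutathione, recycle thioredoxin, reduce quinones and break down haem. Beta cells are known for low catalase and glutathione peroxidase activity, which makes this programme of interest in them. The genes described here are 10 of 20020 protein-coding genes: the regulators NFE2L2 and KEAP1, the stress-induced enzymes HMOX1 and NQO1, the glutathione enzymes GCLC, GCLM and GPX1, the superoxide dismutases SOD1 and SOD2, and the thioredoxin reductase TXNRD1. Their regions were the peaks within 2 kb of a GENCODE 44 start site of the gene (promoter peaks), the other peaks in the gene body, and the other peaks nearest to the gene within 100 kb. This rule took 39 of 51489 H3K27ac peaks, 34 of 51457 CTCF peaks, 7 of 14886 enhancers listed for non-senescent cells and 6 of 13076 listed for senescent cells.

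The cells were EndoC-βH3, a human beta-cell line whose immortalising transgenes, hTERT and the SV40 large T antigen, are removed by a CreER recombinase, labelled wild type and grown in one medium for both states. That medium held sodium selenite, β-mercaptoethanol, albumin, nicotinamide and transferrin. Senescent cells had been exposed for 3 weeks to 4-OHT (4-hydroxy-tamoxifen), the agent that activates CreER, and non-senescent cells were the untreated control; the labels and the methods give the 4-OHT dose in different units. Chromatin immunoprecipitation was sequenced for H3K27ac, the histone acetylation found at active regulatory DNA (3 libraries per state), CTCF, a protein that organises chromatin loops (3 per state), H3K4me1, a mark of enhancers (2 per state), and Rb, the cell-cycle repressor (2 per state). With an input library for each, 40 libraries were sequenced. The differences between the states therefore cover loss of the transgenes, 4-OHT and senescence, which cannot be told apart here, and all come from 1 cell line.

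The H3K27ac and CTCF tables hold, for each peak, the authors' DESeq2 mean count over the 6 libraries, the log2 fold change of senescent over non-senescent cells with its standard error (SE), and p-values. No value per library was used here, so spread is given by the SE, and depth per library is unknown. The mean counts sum to 19239499 over all H3K27ac peaks and to 6136424 over all CTCF peaks. A gain or loss of H3K27ac required more than a 1.5-fold difference at an adjusted p under 0.05; for CTCF the adjusted p had to be under 0.2. Intervals are 95% intervals from the SE. Counts given for one state were derived from the mean and the fold change, with 3 libraries on each side. The cell identity was checked at promoters: all 8 beta-cell genes listed (INS, PDX1, NKX6-1, NKX2-2, NEUROD1, ISL1, PAX6 and SLC30A8) had an H3K27ac promoter peak, at 182 to 537 counts per kb. Of 7 genes of other cell types, GCG, PRSS1, PECAM1 and COL1A1 had none, while CPA1, KRT19 and PTPRC had one at 85.8 to 298 counts per kb. CPA1, at 298, exceeded INS (230), NKX6-1 (272) and SLC30A8 (182). A promoter peak was present at 13525 of 20020 protein-coding genes, so its presence alone separates cell types weakly. The duct marker KRT19 was itself lost in senescent cells (log2 fold change -0.74 ± 0.08 SE in the authors' DESeq2 table), and whether other cell states had a part in the results below was not tested.

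The DNA elements that NRF2 is known to bind were read from hg38 in the members' H3K27ac peaks. The core TGACNNNGC, searched on both strands, was in 26 of 39 member peaks and in 48.3% of all H3K27ac peaks. The longer form TGACTCAGC, which overlaps the AP-1 core TGACTCA, was in 5 of 39 member peaks and in 3.64% of all H3K27ac peaks. The 5 peaks with the longer form were the only H3K27ac peak of HMOX1, the NQO1 promoter peak, 2 GCLC promoter peaks and the SOD1 promoter peak. The HMOX1 peak stood apart with 3 copies of the longer form, against at least 1 copy in 2.46% of H3K27ac peaks within 10% of its width. Its 3 copies and 1 further core lay in 126 bases at chr22:35372004-35372129, outside the gene and 8986 to 9073 bp before the canonical start site. They are shown on the minus strand with the cores in capitals.
HMOX1 upstream cluster: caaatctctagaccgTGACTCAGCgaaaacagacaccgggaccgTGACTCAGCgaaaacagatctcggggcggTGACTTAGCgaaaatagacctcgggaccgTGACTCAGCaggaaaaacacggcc
The single copies at NQO1, GCLC and SOD1 are shown with 15 bases on either side, so that the shared letters in capitals can be compared. The NQO1 copy lay 451 bp before the canonical start site (chr16:69726992-69727030, minus strand). The GCLC copies lay 3152 bp before it (chr6:53548234-53548272, plus strand) and 70957 bp before it (chr6:53616039-53616077, minus strand). The SOD1 copy lay in the first intron, 328 bp after the start (chr21:31660002-31660040, minus strand).
NQO1 promoter: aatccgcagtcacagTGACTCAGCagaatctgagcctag
GCLC upstream promoter: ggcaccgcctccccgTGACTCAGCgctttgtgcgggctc
GCLC distal promoter: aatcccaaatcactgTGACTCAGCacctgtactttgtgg
SOD1 first intron: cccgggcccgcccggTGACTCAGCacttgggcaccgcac
A match is a match of letters only; NRF2 binding was not measured.

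Among the 39 H3K27ac peaks of the 10 genes, 3 were gained and 1 was lost in senescent cells. The gained peaks lay in an intron of NFE2L2 and at 2 places upstream of GCLC, and the lost peak in an intron of TXNRD1. Over all H3K27ac peaks, 9.47% were gained and 13.1% lost; outside promoter windows, where the 4 called peaks lie, the shares were 11.2% and 14.7%. None of the 15 promoter peaks of the 10 genes was called in either direction by the authors' DESeq2 test, although 7 of the 15 had an unadjusted p under 0.05. Taking 1 promoter peak for each of 13525 protein-coding genes, 3.34% were gained and 9.12% lost. With no fold threshold, at an adjusted p under 0.05, 5 member peaks were higher and 9 lower, against 18.9% higher and 20.3% lower among all peaks. The median log2 fold change of the member peaks was -0.09, against 0.01 over all peaks. The plot of H3K27ac changes by gene shows that most intervals crossed 0 or stayed within the 1.5-fold lines.

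**Figure D1:**
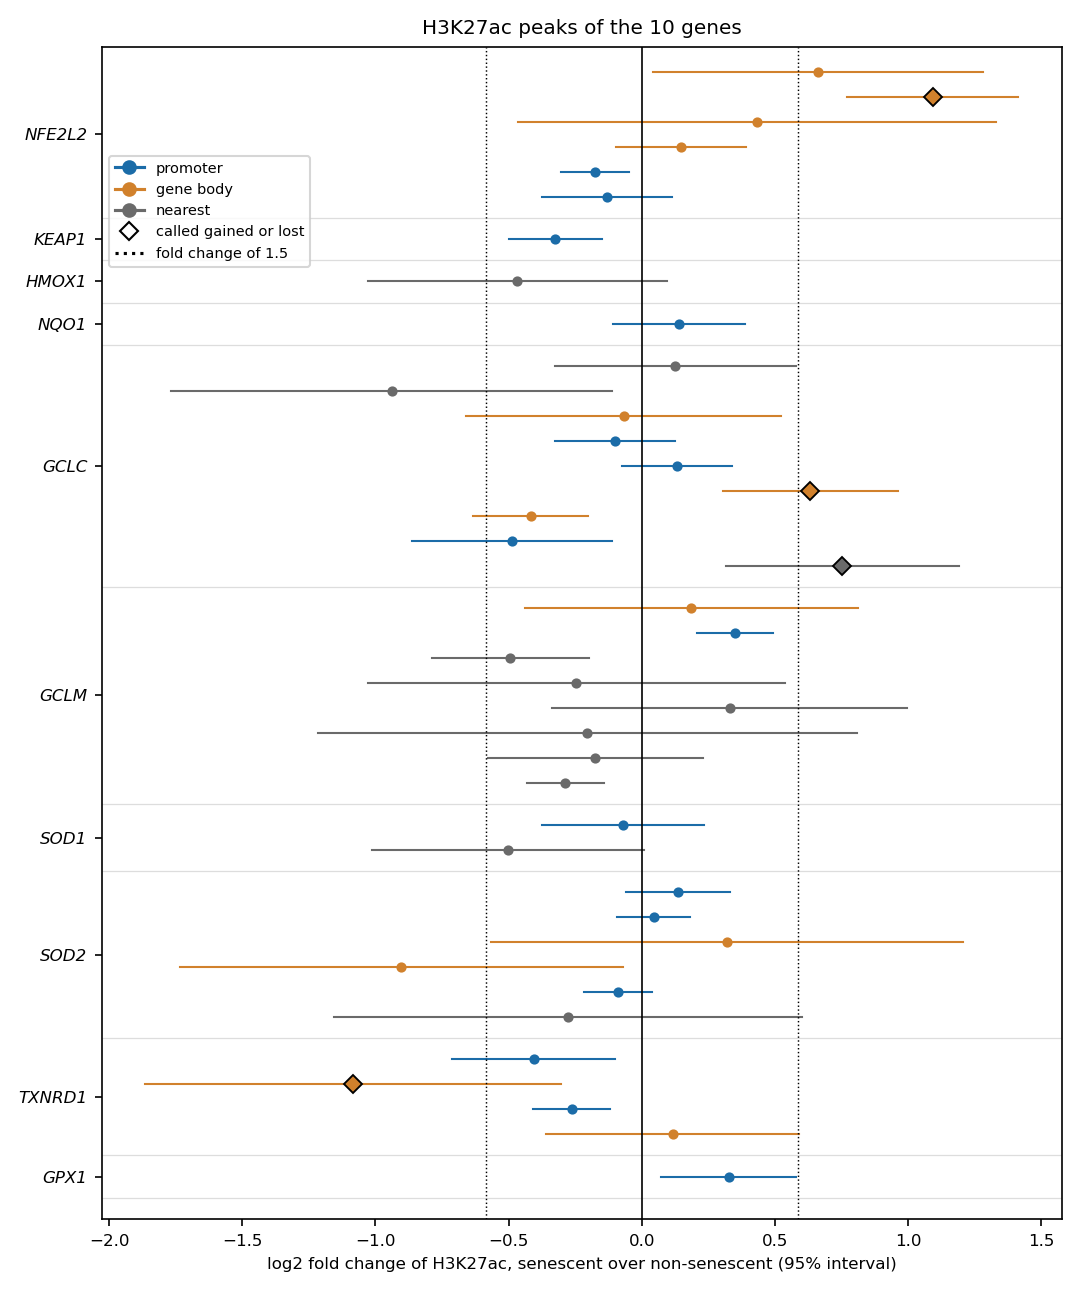
Log2 fold change of H3K27ac (senescent over non-senescent, x axis) for each of the 39 peaks of the 10 genes, with 95% intervals, coloured by promoter, gene body or nearest-gene assignment; dotted lines mark a fold change of 1.5. The 4 diamonds are the called peaks: 1.09 at NFE2L2, 0.63 and 0.75 at GCLC, and -1.08 at TXNRD1, while every promoter peak lies between -0.49 and 0.35.

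NFE2L2 (ENSG00000116044.17, chr2:177218667-177392756, minus strand) held the largest gain. The peak at chr2:177238977-177241573, in an intron of the canonical transcript and centred 24452 bp after the canonical start site, had a mean of 172 counts, which the fold change divides into 110 for non-senescent and 235 for senescent cells. Its log2 fold change was 1.09 ± 0.16 SE, a 2.13-fold rise with an adjusted p of 4.4e-10 in the authors' DESeq2 table. The same place (chr2:177239114-177241354) was in the enhancer list of senescent cells and in no entry of the non-senescent list. Those lists were made in part from H3K27ac, so the entry is not separate from the rise in counts. This place was the only member enhancer listed for senescent cells alone. Both of its TGACNNNGC cores lay close together near its centre, 24653 and 24625 bp after the start site, and are shown because this is the member peak that gained most; 60.8% of H3K27ac peaks within 10% of its width hold such a core.
NFE2L2 intron, chr2 177240055 to 177240093, plus strand: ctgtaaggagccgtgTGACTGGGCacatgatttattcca
NFE2L2 intron, chr2 177240083 to 177240121, plus strand: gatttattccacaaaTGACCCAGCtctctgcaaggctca

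The other NFE2L2 peaks did not pass the call. The 3 other gene-body peaks had log2 fold changes of 0.66 ± 0.32, 0.43 ± 0.46 and 0.15 ± 0.12 SE, and the last of these was in the enhancer lists of both states. The first had a low mean of 38.5 counts. Its interval, from 0.04 to 1.28, did not reach 0, but its adjusted p of 0.084 in the DESeq2 table missed the threshold. At the canonical promoter, a broad peak of 6006 bp (chr2:177260518-177266523) was lower by less than the fold threshold, at -0.17 ± 0.07 SE with an adjusted p of 0.022 (DESeq2). Its mean of 2516 counts corresponds to 2668 in non-senescent and 2364 in senescent cells. The intronic gain and this promoter value thus had opposite signs within the same gene. A last peak at -0.13 ± 0.12 SE covers the start of the neighbouring gene AGPS, so its signal cannot be given to NFE2L2 alone.

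KEAP1 (ENSG00000079999.14, chr19:10486125-10503558, minus strand), the adaptor that marks NRF2 for degradation, had 1 H3K27ac peak, over its exon 1 (chr19:10500929-10504066). It held a mean of 818 counts, or 910 in non-senescent and 727 in senescent cells. The log2 fold change was -0.32 ± 0.09 SE (interval -0.50 to -0.15) with an adjusted p of 0.0012 in the DESeq2 table. The promoter was therefore lower beyond its error, but its interval lay inside the 1.5-fold line.

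HMOX1 (ENSG00000100292.18, chr22:35380361-35394214, plus strand), the inducible haem oxygenase, had no H3K27ac peak at any of its start sites or in its gene body. Its only peak was the upstream one that carries the element cluster shown above (chr22:35371993-35373067), with a mean of 54.3 counts, or 63.0 in non-senescent and 45.6 in senescent cells. The log2 fold change of -0.47 ± 0.29 SE had an adjusted p of 0.19 (DESeq2), and its interval, from -1.03 to 0.09, allows both no change and a loss of more than 2-fold. The enhancer lists differed here: the non-senescent list holds exactly these coordinates and the senescent list holds no overlapping entry. The list and the test of counts thus differed at this peak.

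NQO1 (ENSG00000181019.13, chr16:69706996-69726668, minus strand), a quinone reductase and standard readout of NRF2 activity, had 1 promoter peak (chr16:69725443-69727871) with a mean of 332 counts, 316 in non-senescent and 349 in senescent cells. Its log2 fold change of 0.14 ± 0.13 SE was close to its error, with an adjusted p of 0.39 (DESeq2). The interval from -0.11 to 0.39 stays inside the 1.5-fold lines.

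GCLC (ENSG00000001084.13, chr6:53497341-53616970, minus strand) encodes the catalytic subunit of glutamate-cysteine ligase, the rate-limiting enzyme of glutathione synthesis. It had 9 H3K27ac peaks, the most of the 10 genes, and these moved in both directions. The peak at chr6:53566128-53567955 was gained, by 0.63 ± 0.17 SE on the log2 scale (adjusted p 0.00075, DESeq2). Its mean of 153 counts corresponds to 120 in non-senescent and 187 in senescent cells. It lies 21940 bp upstream of the canonical start, within longer transcripts of the gene, and is an enhancer in both lists. A second gained peak, outside the gene and 83158 bp upstream of the canonical start (chr6:53627440-53629078), had 86.1 counts, or 64.1 against 108, and rose by 0.75 ± 0.22 SE (adjusted p 0.0029, DESeq2). It is in neither enhancer list. Its assignment to GCLC also depends on the gene types allowed, since counting start sites of all gene types gives it to another gene.

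Between these 2 gained places lie 2 GCLC peaks that were lower by less than the fold threshold. An enhancer of both lists (chr6:53603732-53606565) was at -0.42 ± 0.11 SE with an adjusted p of 0.00076, and a distal promoter peak (chr6:53615059-53616967) at -0.49 ± 0.19 SE with an adjusted p of 0.031, both from the authors' DESeq2 table. The distal promoter peak is the one with the TGACTCAGC copy 70957 bp upstream. At the canonical promoter (chr6:53543611-53545907) the mean of 409 counts changed by -0.10 ± 0.11 SE. The adjoining upstream promoter peak (chr6:53547032-53549442), which carries the TGACTCAGC copy 3152 bp before the start, was at 0.13 ± 0.11 SE. Neither promoter value exceeded its error by much, with adjusted p of 0.51 and 0.32 (DESeq2). The 3 remaining peaks had means of 23.4 to 83.4 counts and log2 fold changes of -0.94 to 0.13, none called. The lowest of them, on 23.4 counts, had an interval from -1.77 to -0.11. Its adjusted p of 0.064 (DESeq2) missed the threshold.

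GCLM (ENSG00000023909.10, chr1:93885199-93909456, minus strand), the modifier subunit of the same ligase, had the clearest rise among the promoters, though below the fold threshold. Its promoter peak, 7553 bp wide over exons 1 and 2 (chr1:93902937-93910489), had a mean of 1122 counts, or 987 in non-senescent and 1257 in senescent cells. The log2 fold change was 0.35 ± 0.07 SE, a 1.27-fold difference with an adjusted p of 1.2e-05 (DESeq2). The 250 bases before the RefSeq start (GRCh38.p14, chr1:93909431-93909680, minus strand) hold 1 core, which reads as TGACNNNGC on the opposite strand and is in capitals. It begins 34 bases before the start.
GCLM promoter: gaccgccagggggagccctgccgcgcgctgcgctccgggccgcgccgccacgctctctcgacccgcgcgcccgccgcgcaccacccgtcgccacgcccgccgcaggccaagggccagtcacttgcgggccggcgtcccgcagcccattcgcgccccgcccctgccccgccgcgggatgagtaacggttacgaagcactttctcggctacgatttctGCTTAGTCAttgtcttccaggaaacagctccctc
Windows of this kind, from 250 bases before to 50 after a RefSeq start, were found for 8 of the 10 genes, with 14 windows in all. The core was in 4 of them, from GCLM, KEAP1 and TXNRD1, and in 13.3% of 35116 RefSeq promoter windows. TGACTCAGC was in 0 of the 14 windows and in 0.561% of all. HMOX1 and SOD1 had no window in the table.

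Of the 6 peaks upstream of GCLM, 5 had log2 fold changes below 0 and 1 above, and none was called. The enhancer of both lists at chr1:93924644-93927128 was at -0.49 ± 0.15 SE (adjusted p 0.0040), and a strong peak of 2680 counts at chr1:93954817-93961825 was at -0.29 ± 0.07 SE (adjusted p 0.00057), both below the fold threshold in the DESeq2 table. A weaker peak of 117 counts between them (chr1:93946441-93947986), listed as an enhancer in non-senescent cells alone, was at -0.17 ± 0.21 SE. The strong peak overlapped an entry of both lists, but only the senescent entry was assigned to GCLM. The 3 other upstream peaks had 17.1 to 34.1 counts and lay at -0.25, 0.33 and -0.20, each with an interval across 0. The remaining GCLM peak, in an intron, was at 0.19 ± 0.32 SE on 41.1 counts. The gene maps show these values beside the GCLM promoter.

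**Figure D2:**
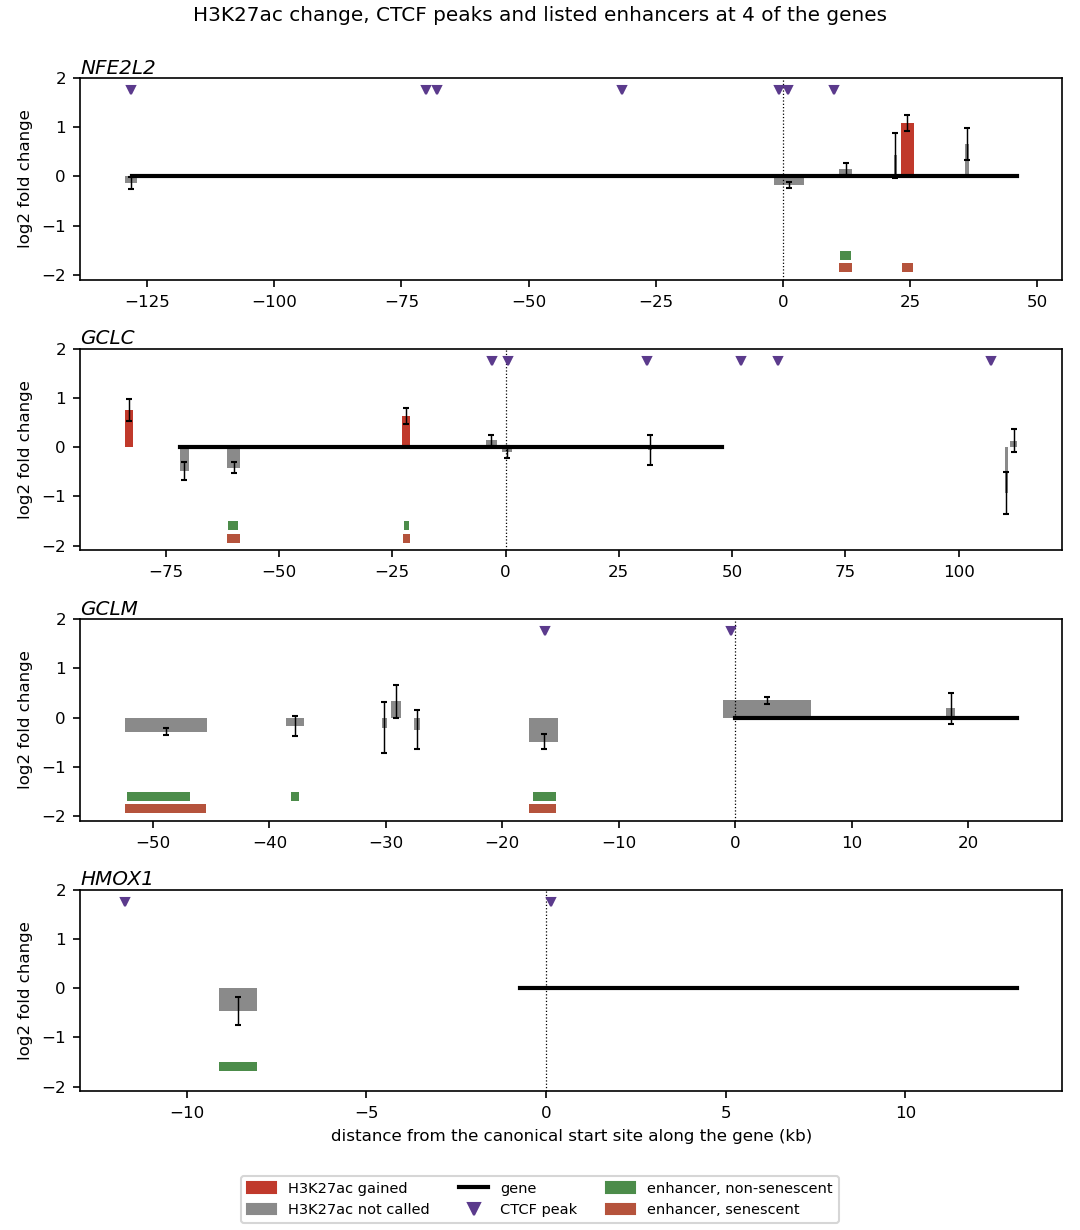
H3K27ac log2 fold change (bars, ± SE; senescent over non-senescent) against distance in kb from the canonical start site, along the direction of transcription, for NFE2L2, GCLC, GCLM and HMOX1; bar width is peak width, the black line is the gene, triangles are CTCF peaks of either direction, and the green and red-brown strips are enhancers listed for non-senescent and senescent cells on these peaks. The red bars are the 3 gained peaks, at 24.5 kb after the NFE2L2 start and at 21.9 and 83.2 kb before the GCLC start; at HMOX1 the upstream peak carries a non-senescent strip only.

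GPX1 (ENSG00000233276.9, chr3:49357174-49358605, minus strand), a selenium-dependent glutathione peroxidase, had 1 peak over both exons (chr3:49357365-49359856). Its mean of 277 counts corresponds to 246 in non-senescent and 308 in senescent cells. The log2 fold change of 0.33 ± 0.13 SE was higher at an adjusted p of 0.033 (DESeq2) and below the fold threshold. This peak also covers a start site of ENSG00000290318 and overlaps RHOA, so the signal cannot be given to GPX1 alone.

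SOD1 (ENSG00000142168.15, chr21:31659666-31668931, plus strand), the cytosolic copper-zinc superoxide dismutase, had a promoter peak of 175 counts (chr21:31659182-31660956) with 179 in non-senescent and 170 in senescent cells. The log2 fold change was -0.07 ± 0.15 SE. Its other peak, 15931 bp after the start and inside the neighbouring gene SCAF4 (chr21:31674994-31676254), was an enhancer listed in non-senescent cells alone. That peak was at -0.50 ± 0.26 SE on 66.3 counts, with an adjusted p of 0.12 (DESeq2). SOD1 thus had an enhancer entry that differed between the lists without a called difference in counts, as at HMOX1.

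SOD2 (ENSG00000291237.1, chr6:159669069-159762529, minus strand), the mitochondrial manganese superoxide dismutase, had 6 peaks and no call. At the canonical start the peak at chr6:159692125-159694925 had 617 counts, or 588 in non-senescent and 646 in senescent cells, with a log2 fold change of 0.14 ± 0.10 SE (adjusted p 0.28, DESeq2). The SOD2 promoter peak with the highest mean, 2302 counts at chr6:159725132-159730107, covers an upstream SOD2 start and the start of WTAP. It was at 0.04 ± 0.07 SE. Another promoter peak, over the start of ACAT2, was at -0.09 ± 0.07 SE. The intervals of all 3 stay inside the 1.5-fold lines, from -0.22 to 0.33. The 3 remaining SOD2 peaks had 18.3 to 21.8 counts and SEs above 0.4, so they say little. The lowest of them was at -0.90 ± 0.42 SE, with an interval from -1.74 to -0.07. Its adjusted p of 0.078 (DESeq2) missed the threshold.

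TXNRD1 (ENSG00000198431.18, chr12:104215779-104350307, plus strand), the cytosolic selenoprotein that recycles thioredoxin, held the only lost peak. This was a narrow intronic peak of 637 bp (chr12:104276197-104276833) with a mean of 29.7 counts, or 40.4 in non-senescent and 19.1 in senescent cells. Its log2 fold change was -1.08 ± 0.40 SE with an adjusted p of 0.019 (DESeq2). The call rests on few reads: it is gone when a mean of at least 50 counts, an adjusted p under 0.01 or a test against a fold change of 1.5 is asked for. Both TXNRD1 promoter peaks were lower below the fold threshold. The one at the canonical start (chr12:104215403-104216766, 161 counts) was at -0.41 ± 0.16 SE (adjusted p 0.027), and the stronger one over internal start sites at exon 4 (chr12:104285454-104290117, 1021 counts) was at -0.26 ± 0.07 SE (adjusted p 0.0016), both from DESeq2. The fourth peak, over the start of EID3, was at 0.12 ± 0.24 SE.

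The levels of promoter H3K27ac differed more between the genes than between the states. Per kb of peak, the order of the mean over both states, using the promoter peak with the highest mean count, was SOD2 463 counts, NFE2L2 419, KEAP1 261, TXNRD1 219, GCLC 178, GCLM 149, NQO1 137, GPX1 111 and SOD1 98.4. The median over 13525 genes with a promoter peak was 184 counts per kb. NFE2L2 stood at the 94.4th percentile of these promoters, SOD1 at the 18.9th, and HMOX1 had no promoter peak. The first place of SOD2 belongs to the peak shared with WTAP; its canonical peak had 220 counts per kb. The value of TXNRD1 belongs to the peak over the internal starts at exon 4; its canonical promoter peak had 118 counts per kb, which is below NQO1 in this order. The order is a description without a test, since no spread over libraries was used here.

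CTCF binding at the 10 genes was not called changed at any peak. Of 34 CTCF peaks, 29 had an adjusted p, and 0 passed an adjusted p under 0.2 with a fold change above 1.5 in the authors' DESeq2 table; over all CTCF peaks with an adjusted p, 2.99% were gained and 4.28% lost. An unadjusted p under 0.05 was seen at 2 of the 34. The first, in exon 6 of NQO1 (chr16:69708893-69710241, 148 counts), was higher by 0.44 ± 0.18 SE on the log2 scale with an adjusted p of 0.15 (DESeq2), past the p threshold but under the fold. The second, 11710 bp upstream of HMOX1 (chr22:35369136-35369637, 22.4 counts), was at -0.94 ± 0.47 SE with an adjusted p of 0.25. The median log2 fold change was -0.03 over the member peaks and -0.01 over all CTCF peaks.

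**Figure D3:**
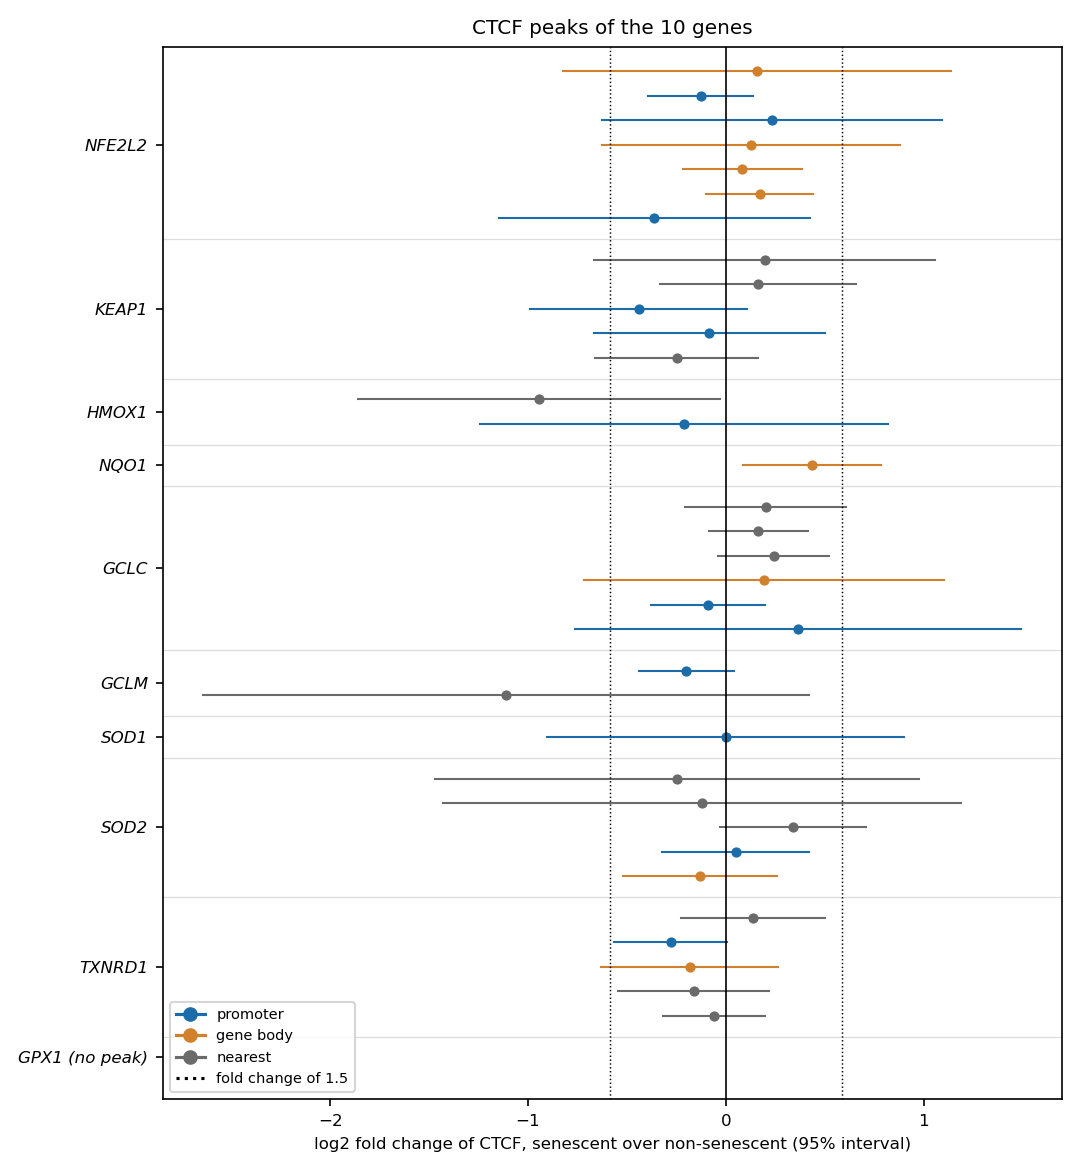
Log2 fold change of CTCF binding (senescent over non-senescent, x axis) for each of the 34 peaks of the 10 genes, with 95% intervals and the same colours as for H3K27ac; dotted lines mark a fold change of 1.5. No peak was called: the best measured ones, such as GCLM at -0.20, sit close to 0, and values beyond the dotted lines (HMOX1 at -0.94, GCLM at -1.11) have intervals that reach -0.03 and 0.42.

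The strongest CTCF peak of each gene had a narrow interval around a small change where the counts were high. GCLM had the strongest, 463 counts at its promoter (chr1:93909100-93910553), at -0.20 ± 0.12 SE; the H3K27ac peak over the same promoter was at 0.35 ± 0.07 SE. NFE2L2 had 341 counts at a site 70236 bp upstream of its canonical start (0.17 ± 0.14 SE), GCLC 338 counts 60200 bp after its start (0.16 ± 0.13 SE) and TXNRD1 328 counts 166186 bp after its start (-0.06 ± 0.13 SE). The intervals of these 4 peaks all lay inside the 1.5-fold lines. SOD2 had 148 counts at its promoter (0.05 ± 0.19 SE), KEAP1 145 counts 7052 bp upstream (-0.25 ± 0.21 SE) and NQO1 the exon 6 peak already described. For SOD1, with 20.3 counts at its promoter (0.00 ± 0.46 SE), and HMOX1, whose 2 peaks had at most 22.4 counts, a 1.5-fold difference was not detectable at this depth. GPX1 had no CTCF peak.

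A match to the 14-letter core of the CTCF motif with at most 1 mismatch was in 12 of the 34 member CTCF peaks and in 38.4% of all CTCF peaks. It was exact in 3 member peaks, shown here on the plus strand with the core in capitals: in the first intron of NFE2L2 (chr2:177263644-177263673), upstream of NFE2L2 (chr2:177335130-177335159) and beyond TXNRD1 (chr12:104382005-104382034).
NFE2L2 promoter CTCF: ggtgagcgCCACCAGGGGGCACcgcgtccg
NFE2L2 upstream CTCF: ccttttttCCACTAGGGGGCACtgtagtac
TXNRD1 downstream CTCF: cctgggtaCCACTAGGTGGCGCtcaaaaca
The NFE2L2 promoter site (267 counts) was at -0.13 ± 0.14 SE, beside the values of 0.17 and -0.06 given above for the other two. Of the 34 CTCF peaks, 10 overlapped an H3K27ac peak of the members.

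The enhancer lists, made by the authors from overlapping H3K27ac and H3K4me1 outside promoters, held 7 entries at 5 of the genes in non-senescent cells and 6 entries at 3 of the genes in senescent cells. Of the 7 non-senescent entries, 3 had no overlap in the senescent list: at HMOX1, GCLM and SOD1. Over the whole non-senescent list this share was 29.4%. Of the 6 senescent entries, 1 had no overlap in the non-senescent list, the NFE2L2 intron, against 20.5% over the whole senescent list. Among these 4 entries found in 1 list alone, only the NFE2L2 entry lay on a called H3K27ac peak. The gained GCLC peak 21940 bp upstream is in both lists. No entry of either list was assigned to KEAP1, NQO1, SOD2, TXNRD1 or GPX1.

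The table of Rb regions found in senescent against non-senescent cells holds 2435 regions. None of the 39 H3K27ac or 34 CTCF member peaks overlapped one, against 0.691% of all H3K27ac and 0.286% of all CTCF peaks. None lay in the 10 genes or within 2 kb of them, against 2.88% of protein-coding genes with one there. These counts of 0 lie close to the shares over all peaks and genes. The nearest was 225800 bp from a start site of NFE2L2.

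Around the 10 genes, a list of 78 further genes of antioxidant defence was examined at promoters, 72 of which had an H3K27ac promoter peak. Of these, 3 were gained and 7 lost, against 3.34% gained and 9.12% lost over all genes. With the log2 fold changes centred on the median of promoter peaks (0.04), the counts were 2 gained and 10 lost, against 2.81% and 10% over all genes. The median over the 72 was -0.03, against 0.04 over all promoters. The group with the most losses was glutathione synthesis and cystine uptake, where 4 of 6 promoters were lost and 0 gained by the authors' DESeq2 test. The 4 lost were transport and breakdown genes, and the synthesis enzyme of the group, GSS, was not called.

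In that group SLC7A11, the cystine-glutamate exchanger that brings in the limiting precursor of glutathione, fell most. Its promoter (chr4:138240372-138243400) had 550 counts in non-senescent and 216 in senescent cells, a log2 fold change of -1.35 ± 0.12 SE with an adjusted p of 6.5e-28 (DESeq2). SLC3A2, the heavy chain that carries SLC7A11 to the membrane, was lost at -0.67 ± 0.08 SE. CHAC1, which breaks glutathione down, was lost at -0.71 ± 0.08 SE, and GGT1, which cleaves glutathione outside the cell, at -0.87 ± 0.25 SE from a low 66.4 counts at a peak shared with LRRC75B. These 4 do not all act on glutathione in the same way, since SLC7A11 and SLC3A2 import a precursor and CHAC1 degrades the product. The remaining 2 of the group, glutathione synthetase GSS (-0.03 ± 0.09 SE) and glutathione reductase GSR (-0.13 ± 0.08 SE), were not called, like GCLC and GCLM at their promoters.

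Among 10 further regulators of NRF2, the 2 called genes were both small MAF partners and went in opposite directions. MAFG was gained at 0.65 ± 0.06 SE (adjusted p 6.3e-23, DESeq2) over a broad peak shared with SIRT7, and MAFF was lost at -0.70 ± 0.11 SE (adjusted p 4.4e-09). BACH1, the repressor that competes with NRF2 at the same elements, was lower below the fold threshold at -0.52 ± 0.08 SE. CUL3, the ubiquitin ligase scaffold that works with KEAP1, was at -0.42 ± 0.09 SE, also lower at an adjusted p of 1.4e-05 (DESeq2) with less than a 1.5-fold difference, in the same direction as KEAP1. RBX1, SQSTM1 and BTRC, also uncalled, were at -0.12 ± 0.08, 0.13 ± 0.08 and 0.27 ± 0.10 SE. At any fold, 2 of the 10 were higher and 4 lower at an adjusted p under 0.05 (DESeq2), against 25% and 19.7% over all promoters. NFE2L1, among the 4 lower, was at -0.21 ± 0.08 SE, and MAFK, another small MAF, was uncalled at 0.24 ± 0.14 SE.

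The group of detoxification genes also held sestrins, which are not detoxifying enzymes. Of its 12 genes with a promoter peak, the carbonyl reductase CBR1 was gained at 0.77 ± 0.16 SE. The stress-induced sestrin SESN1 was gained at 0.60 ± 0.08 SE, just past the threshold at 1.51-fold. The aldo-keto reductase AKR1C2 was lost at -0.82 ± 0.26 SE; it belongs to a family of near-identical copies, so its reads are uncertain. Of 8 genes that supply NADPH, the malic enzyme ME1 was lost at -1.41 ± 0.32 SE from 43.3 counts, and 0 were gained. Catalase, CAT, was at 0.53 ± 0.08 SE, a 1.44-fold rise that missed the fold threshold. None of 11 glutathione peroxidases and transferases, 12 thioredoxin and peroxiredoxin genes, 7 glutaredoxins and sulfoxide reductases or 5 haem and iron genes was called, and at any fold 1, 0, 0 and 0 of them were higher and 4, 2, 0 and 2 lower at an adjusted p under 0.05 (DESeq2). Over all promoters, 25% were higher and 19.7% lower at any fold. Among these uncalled groups, GSTO1 (-0.58 ± 0.09 SE), SRXN1 (-0.57 ± 0.12 SE) and GPX2 (-0.55 ± 0.18 SE) fell most. All were just short of the fold threshold, and GSTO1 shares its peak with CFAP43. MGST2 was the 1 higher at any fold, at 0.29 ± 0.08 SE. The 3 promoters of the list with the highest H3K27ac per kb, NQO2 (602 counts per kb), GSK3B (482) and TXN2 (425), were at 0.17, 0.03 and 0.15.

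**Figure D4:**
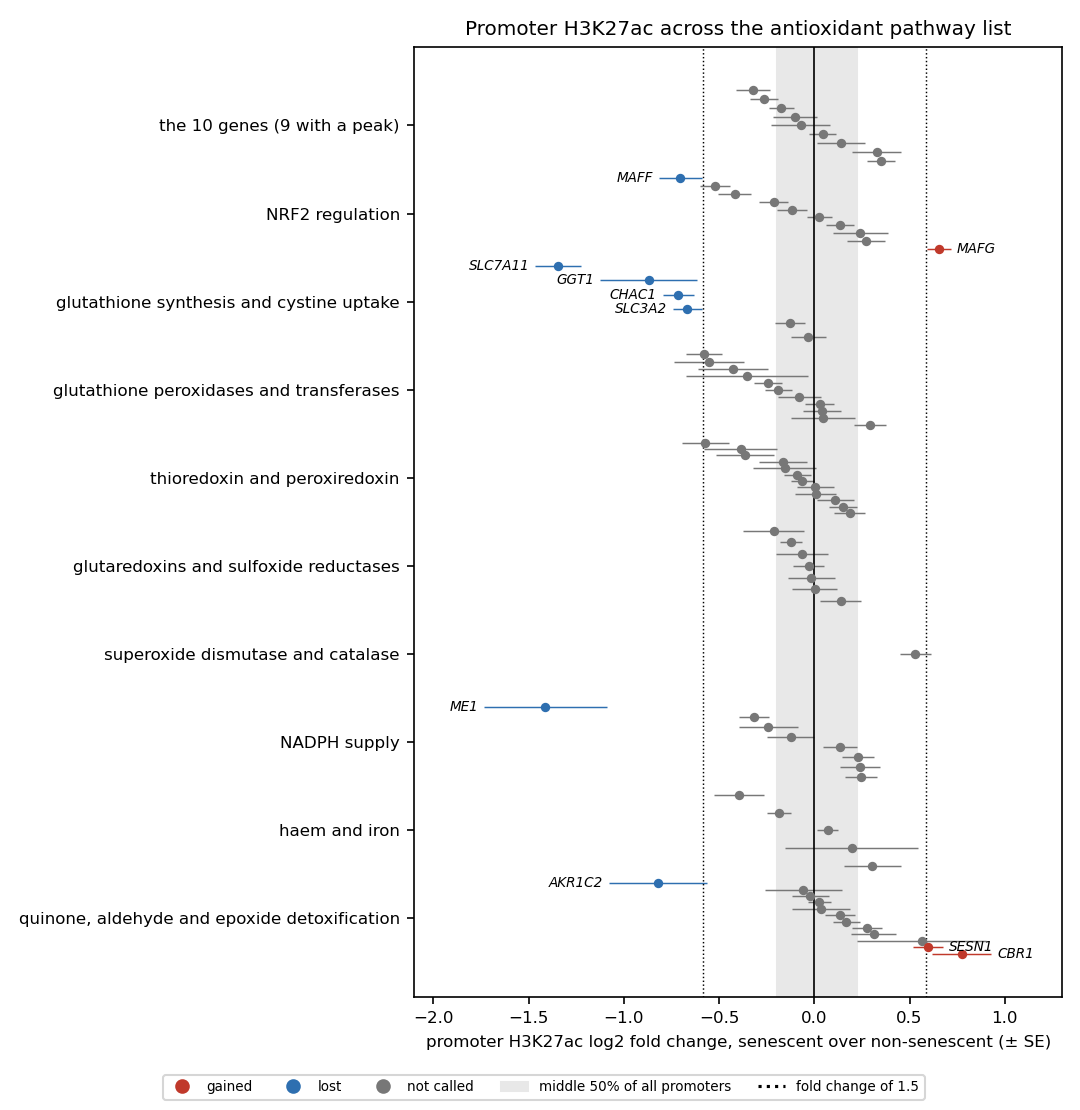
Promoter H3K27ac log2 fold change (senescent over non-senescent, x axis, ± SE) for the 10 genes, of which 9 have a promoter peak, and for 72 further antioxidant genes by role; the grey band is the middle 50% of all promoters and dotted lines mark a fold change of 1.5. No promoter of the 10 genes passes a dotted line, and MAFG, SESN1 and CBR1 are the 3 to the right. In the group labelled glutathione synthesis and cystine uptake, 4 of 6 lie to the left: SLC7A11, SLC3A2, CHAC1 and GGT1, but not the synthesis enzyme GSS.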

How the data were processed

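Chromatin immunoprecipitation was sequenced from EndoC-βH3 cells. After trimming (Trim Galore) and alignment to hg38 (Bowtie2), the authors removed duplicates (Picard for H3K27ac and H3K4me1, samtools for Rb), called peaks with HOMER (H3K27ac, H3K4me1) or MACS2 (CTCF, Rb), counted reads in peaks and compared the states with DESeq2; versions are not given in the sources used here. MACS2 called CTCF against input, and Rb with the non-senescent libraries as control. The deposited tables hold the normalised mean coverage signal per peak, the log2 fold change with its SE, the Wald score and the p-values; the authors adjusted these p-values, and 11972 CTCF peaks have none. They are the authors' comparison columns and the only measurements in these tables, so calls were made from them and nothing was refitted; the size factors of such a fit set the typical peak to no change. The methods describe a filter of CTCF peaks for the JASPAR motif with FIMO. A core match with at most 1 mismatch was in 38.4% of all CTCF peaks. That search of letters is another measure and cannot show whether the filter was applied.

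Coordinates are hg38, starts shown 1-based. Peaks were assigned with GENCODE 44 in Python 3.11.15, pandas 2.3.3, numpy 2.4.6 and scipy 1.17.1; sequences were read with pysam 0.24.0 from hg38 and RefSeq tables (GRCh38.p14). Overlap meant at least 1 base. The calling step was tested on simulated fold changes with normal noise of the deposited SEs. That checks the arithmetic of the calls and cannot show whether the SEs are right. The named items were all 10 genes with each called peak, the promoter H3K27ac peak and the CTCF peak of highest mean count, and, of the further list, each gene with a called promoter and the 3 highest per kb; others were chosen after their values were seen. The genes and lists were chosen with earlier results of these data known. No source used here says that libraries came from separate cultures, so p-values may measure technical spread only.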

Additional observations from a re-analysis of the deposited data

How the results depend on the processing

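No paired analysis was possible because the tables used here give 1 mean and 1 fold change per peak and no value per library; for the same reason no library could be left out, and no other normalisation or count test was run. With no fold threshold, H3K27ac member peaks were 5 gained and 9 lost (18.9% and 20.3% of all peaks), further promoters 11 gained and 19 lost (25% and 19.7% of all promoters), and 1 CTCF member peak was gained and 0 lost (6.76% and 6.54% of all CTCF peaks with an adjusted p). At a fold change above 2, 1 member peak was gained (NFE2L2) and 1 lost (TXNRD1; 3.91% and 5.8% of all peaks), and further promoters were 0 gained and 2 lost (0.673% and 3.77% of all promoters). Tested against a fold change of 1.5, 1 member peak was gained (NFE2L2) and 0 lost (1.89% and 2.76% of all peaks), and further promoters were 0 gained and 1 lost (0.754% and 2.5% of all promoters). When a mean count of at least 50, or an adjusted p under 0.01, was required, the TXNRD1 peak was no longer called and 0 member peaks were lost, against 10.1% and 10.7% of all peaks under these requirements. The remaining 38 recomputed counts were within 1.5 times of those given, and those for CTCF were 0 as before. They included CTCF with GC bins removed, a 1 kb promoter window and a 50 kb limit. This range still covers a change from 7 to 10 further promoters lost on centring. The 18 recomputed promoter values kept their direction and stayed uncalled. Little difference was possible. Centring moved each by 0.04, and the peak nearest to the canonical start was another peak only at SOD2 and TXNRD1. Counting start sites of all gene types left 28 of the 39 H3K27ac and 28 of the 34 CTCF member peaks assigned. The gene given to many peaks assigned by nearest start site, not only the gained GCLC peak, thus depends on the gene types allowed. Peaks with few counts limit what can be seen: 12 of 39 H3K27ac and 13 of 34 CTCF member peaks had means under 50.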

Other observations

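CTCF at the promoters of the further antioxidant genes was seen at 43 of 78. Of the 34 with an adjusted p, 2 were gained and 1 was lost by the CTCF thresholds given above, applied to the authors' DESeq2 table, against 0.751% gained and 5.04% lost over the promoters of all genes. PRDX5, a peroxiredoxin, was gained at 0.59 ± 0.20 SE on the log2 scale (adjusted p 0.071) and was named after its value was seen; its H3K27ac was at 0.18 ± 0.08 SE at a promoter shared with ESRRA and TRMT112. AKR1C2 was gained for CTCF at 0.83 ± 0.29 SE (adjusted p 0.076) while its promoter H3K27ac was lost at -0.82 ± 0.26 SE. GGT1 was lost for both, CTCF at -0.71 ± 0.25 SE (adjusted p 0.082) and H3K27ac at -0.87 ± 0.25 SE.

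No H3K27ac promoter peak was in the table for 6 of the 78 genes: GPX8, GSTP1, MGST1, SOD3, BLVRA and AKR1B10. Of these, GPX8, GSTP1, MGST1 and SOD3 had a CTCF promoter peak, at 23.6, 33.1, 119 and 6.69 counts, none called.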
